A study of Homo sapiens with 47 samples.

Results

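This is an account of 29 genes of cholesterol and fatty acid synthesis, out of 58051 genes listed, followed through the differentiation of human embryonic stem cells (hESCs) towards posterior neural progenitors and neural crest. The genes were taken by name from the mevalonate pathway, the squalene and sterol steps, the transcription factors and the sensor that control them, 1 sterol carrier and the fatty acid enzymes, and all 29 were found and passed the filter on low counts. The measurement was bulk polyA RNA sequencing of H9 (WA09), an established hESC line, in 47 libraries. H9 cells growing in mTESR1 medium on Matrigel (t0) were kept for 36 h in N2B27 medium lacking vitamin A with CHIR-99021 (a GSK3 inhibitor that switches on Wnt signalling), FGF2, AGN193109 (an inverse agonist of the retinoic acid receptors) and Y-27632 (a ROCK inhibitor), which gave neuromesodermal-like cells (36 h), and were then passaged in the same medium from passage 1 to passage 10 (P1 to P10). Independent differentiations, called r1, r2 and r3, gave 35 libraries of whole cultures over 12 time points, with r3 not analysed here at P9. At P5 and P8, brief TrypLE treatment of the same cultures released a mesenchymal fraction (MES) from an attached epithelial fraction (EPI), which gave a further 12 libraries, 3 of each fraction at each passage. All groups derived from 1 cell line, so replicates were differentiations and not donors.

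Library totals ran from 13029491 to 64082859 expected counts, with a median of 47292229. The lowest expected count of any of the 29 genes in any library was 111. The labelled cells carried their markers: the summed normalized count of 5 hESC genes ran from 124299 to 130038 at t0 and from 153 to 425 at P8, and that of 5 neuromesodermal genes from 638 to 680 at t0 and from 49759 to 141979 at 36 h. The paper reports that by P5 the cultures held both epithelial and mesenchymal cells. In bulk samples of mixed cells, fewer cells of a type and less RNA per cell cannot be told apart.

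Cholesterol is built from acetyl-CoA through mevalonate, the isoprenoid pyrophosphates, squalene and lanosterol, and long-chain fatty acids are built from malonyl-CoA and then lengthened and desaturated. The enzymes of both branches share transcriptional control by the sterol regulatory element binding proteins, SREBP-2 mainly for the sterol branch and SREBP-1 mainly for the fatty acid branch. When sterol is scarce, SCAP escorts the SREBPs from the endoplasmic reticulum to the Golgi for cleavage, and INSIG1 holds that transport back when sterol is plentiful.

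Because the results turn on genes that moved together and on a few that did not, their promoters were searched first. RefSeq promoter windows (GRCh38.p14) of 250 bases before the transcription start were used for 25 of the 29 genes, 1 window each. The sterol regulatory element TCACNCCAC, searched on both strands, was in 1 of the 25 windows, that of *SREBF2*, against 0.883% of 35116 windows. Its shorter core CACNCCAC, contained in the longer motif, was in 3 (*INSIG1*, *SCD* and *SREBF2*) against 4.87%. CCAAT, the box bound by NF-Y, was in 18 of 25 windows (72.0%) against 32.0% of all windows, with 11 of the 25 holding it more than once against 9.53%. GGGCGG, a core bound by Sp1, was in 23 of 25 (92.0%) against 42.6%. The 35116 windows were not cut to 1 per gene, whereas each member's window was chosen by how many annotated transcripts held its first transcribed bases. The shares thus compare unlike sets of windows. A match describes letters in a window and was not tested as a site.

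The sequences of 5 windows are shown for contrast: *HMGCS1*, *MVD* and *INSIG1* were low in the libraries P2 r3 and P9 r1 and higher in MES than in EPI at P5, *SREBF2* encodes the factor itself, and *LBR* had its lowest value in another library and did not pass between the fractions. Each is written 5′ to 3′ on the strand of its gene, and only the bases upstream of every annotated transcript of that gene are given. Capitals mark TCACNCCAC, CACNCCAC and CCAAT or their reverse complements. By GENCODE 29 the stretches of *HMGCS1*, *INSIG1* and *LBR* lay in no gene, that of *MVD* lay within the antisense gene *SNAI3-AS1* and that of *SREBF2* within *SREBF2-AS1*.
HMGCS1, chr5:43313513-43313662, minus strand: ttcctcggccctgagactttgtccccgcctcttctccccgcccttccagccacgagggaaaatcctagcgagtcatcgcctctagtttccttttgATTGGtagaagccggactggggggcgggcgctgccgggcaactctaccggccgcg
MVD, chr16:88663162-88663341, minus strand: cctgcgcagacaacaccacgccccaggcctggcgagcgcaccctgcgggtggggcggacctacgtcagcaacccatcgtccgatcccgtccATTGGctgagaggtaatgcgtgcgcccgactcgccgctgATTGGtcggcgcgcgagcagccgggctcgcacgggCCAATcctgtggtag
INSIG1, chr7:155297628-155297775, plus strand: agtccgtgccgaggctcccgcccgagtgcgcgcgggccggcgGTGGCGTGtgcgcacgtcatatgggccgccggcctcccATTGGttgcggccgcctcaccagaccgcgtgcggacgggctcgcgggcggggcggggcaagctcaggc
SREBF2, chr22:41832855-41833078, plus strand: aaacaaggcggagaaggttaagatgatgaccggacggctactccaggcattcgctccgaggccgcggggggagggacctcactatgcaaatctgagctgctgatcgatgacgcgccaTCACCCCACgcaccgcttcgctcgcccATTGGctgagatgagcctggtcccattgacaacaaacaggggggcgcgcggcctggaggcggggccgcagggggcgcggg
LBR, chr1:225428926-225429071, minus strand: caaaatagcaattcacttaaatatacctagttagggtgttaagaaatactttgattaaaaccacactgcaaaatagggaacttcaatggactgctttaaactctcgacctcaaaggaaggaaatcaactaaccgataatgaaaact

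The windows of *HMGCS1*, *MVD* and *INSIG1* each held at least 1 CCAAT box, whereas that of *LBR* held none of the 4 motifs. The boxes did not follow the results gene by gene: *ELOVL6*, which was higher in MES at P5, had no CCAAT box, while *NSDHL* with 5, *MSMO1* with 4 and *EBP* with 3 did not pass between the fractions. The *SREBF2* element began 133 bases before the start, with a CCAAT box on the opposite strand 106 bases before it.

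On the length-adjusted TPM scale (transcripts scaled to a fixed total), *FADS2*, *SCD*, *FDPS* and *HMGCS1* were the most abundant members. Over the 35 whole cultures the median level was 580 TPM for *FADS2* (delta-6 desaturase), 496 TPM for *SCD* (stearoyl-CoA desaturase), 371 TPM for *FDPS* (farnesyl pyrophosphate synthase) and 337 TPM for *HMGCS1* (HMG-CoA synthase). The lowest medians were those of *PMVK* and, at 23.0 TPM, *MVK*, the kinases that phosphorylate mevalonate one after the other. Apart from these levels, values below are normalized counts, that is expected counts divided by library size factors, which compare samples for 1 gene but not genes with each other.

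The whole-culture libraries P2 r3 and P9 r1 stood apart from the rest in these genes, and the main counts that change without them are given both ways. In P2 r3 the median member was 0.98 lower on the log2 scale than in the other P2 libraries, 25 of 29 members were lower and 14 were lower by 2-fold or more, against 4.28% of the 13297 genes whose mean normalized count reached 100. In P9 r1, compared with P9 r2, the median difference was -1.69, with 27 of 29 members lower and 23 lower by 2-fold or more, against 9.11% of the same genes. P9 r2 has P9 r1 as its only reference, so its median difference was 1.69, the reverse of that of P9 r1. At P9 this measure alone therefore cannot show which library stood apart. With P9 r2 left out as well, the median differences of the 44 remaining libraries ran from -0.65 (P10 r1) to 0.51 (36 h r2). At most 4 members were 2-fold lower in any of these 44.

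**Figure D1:**
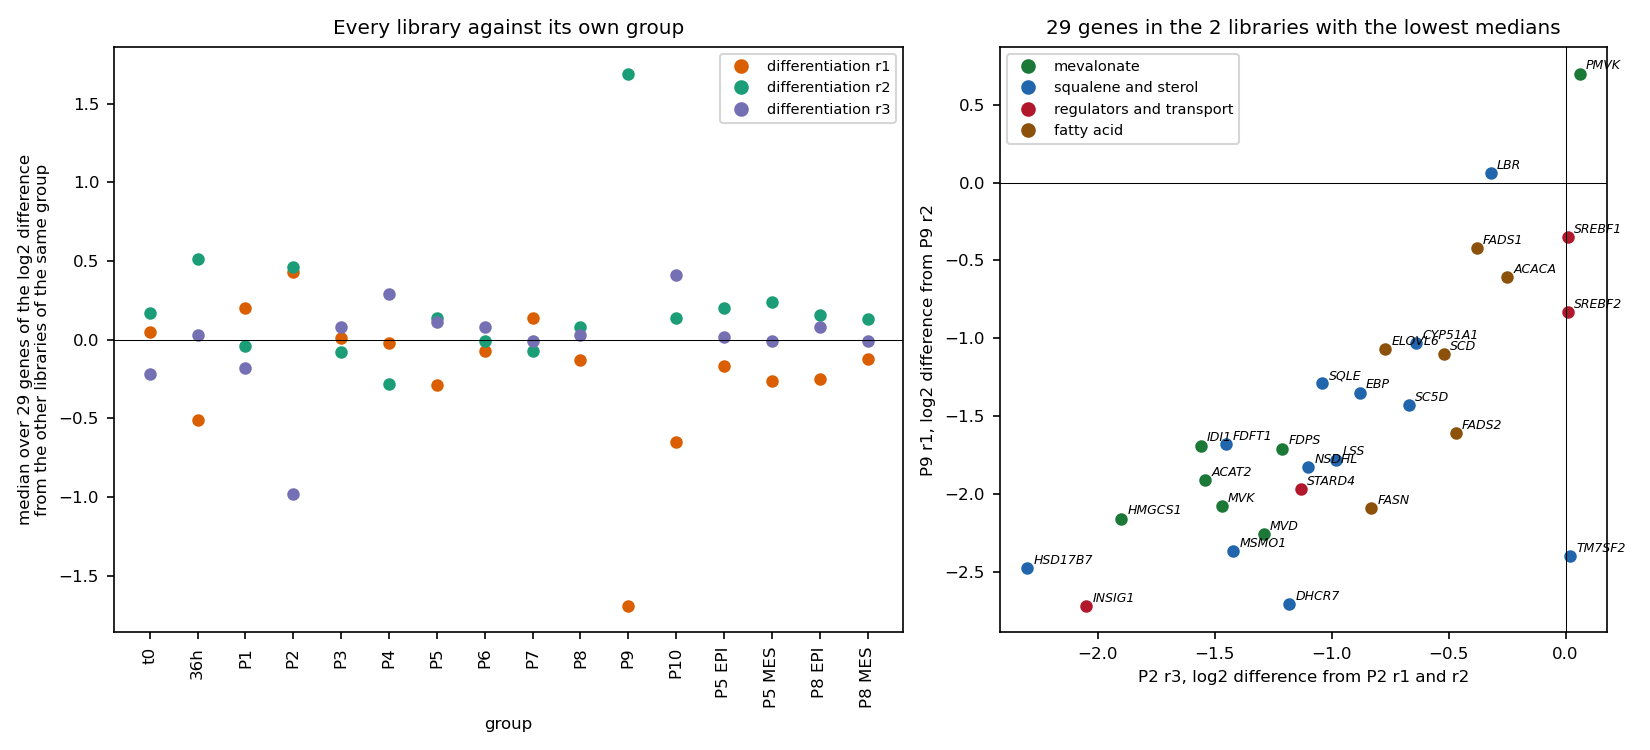
Left, median log2 difference of the 29 genes between each library and the others of its group, 1 point per library. Right, the log2 difference of each gene in P2 r3 against that in P9 r1. P2 r3 (-0.98) and P9 r1 (-1.69) lie below all other libraries, and most genes are low in both.

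*HMGCS1*, which makes HMG-CoA, had normalized counts of 23524 and 19498 in P2 r1 and r2 but 5725 in P2 r3, and 4749 in P9 r1 against 21203 in P9 r2. *INSIG1* had 3027 and 3240 in P2 r1 and r2, 753 in P2 r3, 806 in P9 r1 and 5312 in P9 r2. Both genes had their 2 lowest whole-culture values in these libraries, as did 17 of the 29 members. *FASN* (fatty acid synthase) had 42849 and 44448 in P2 r1 and r2 and 24625 in P2 r3, and 9025 in P9 r1 against 38544 in P9 r2. P9 r1 was the lowest whole culture for 21 members, P2 r3 for 5, and neither for *PMVK*, *LBR* and *SREBF1*. The share of all genes was not computed for the counts of 17, 21 and 5. These libraries were picked for being low in the same genes, so the counts only describe that choice. *SREBF1*, which encodes SREBP-1, had 2192, 2767 and 2478 across P2 and 2302 and 2937 across P9, so the P2 r3 value lay within its group.

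A list of 15 amino acid and endoplasmic reticulum stress response genes, chosen after these libraries were seen, was high in the same libraries. Because of that choice, the values below only describe it. *CHAC1*, a glutathione-degrading enzyme of that response, had 3471 in P2 r3 and 5448 in P9 r1, against a median of 91.7 and a highest value of 3146, in 36 h r1, in the others. *ASNS* (asparagine synthetase) had 22718 and 38496, against at most 20932, again in 36 h r1. The total counts of P2 r3 (29223838) and P9 r1 (38138216) were below the median library but above the lowest. Epithelial markers summed to 912 in P9 r1 and 919 in P9 r2, and neural crest markers to 56370 and 62975, but neuromesodermal markers summed to 589 and 10982 and neuronal markers to 11219 and 20830. At P2 the neuromesodermal sum was 39207, 20940 and 14514 in r1, r2 and r3. The summed counts of 10 proliferation genes were also the lowest of all 47 libraries, at 88172 in P2 r3 and 95254 in P9 r1. The others ran from 98646, in P2 r2, to 162163. The median member differed from the other P2 libraries by 0.46 on the log2 scale in P2 r2 and by 0.43 in P2 r1. Both references include the low P2 r3, so these values do not show the level of P2 r2 apart from it. Whether the stress response, the proliferation genes or the mix of cells bore on the lipid genes was not tested.

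**Figure D2:**
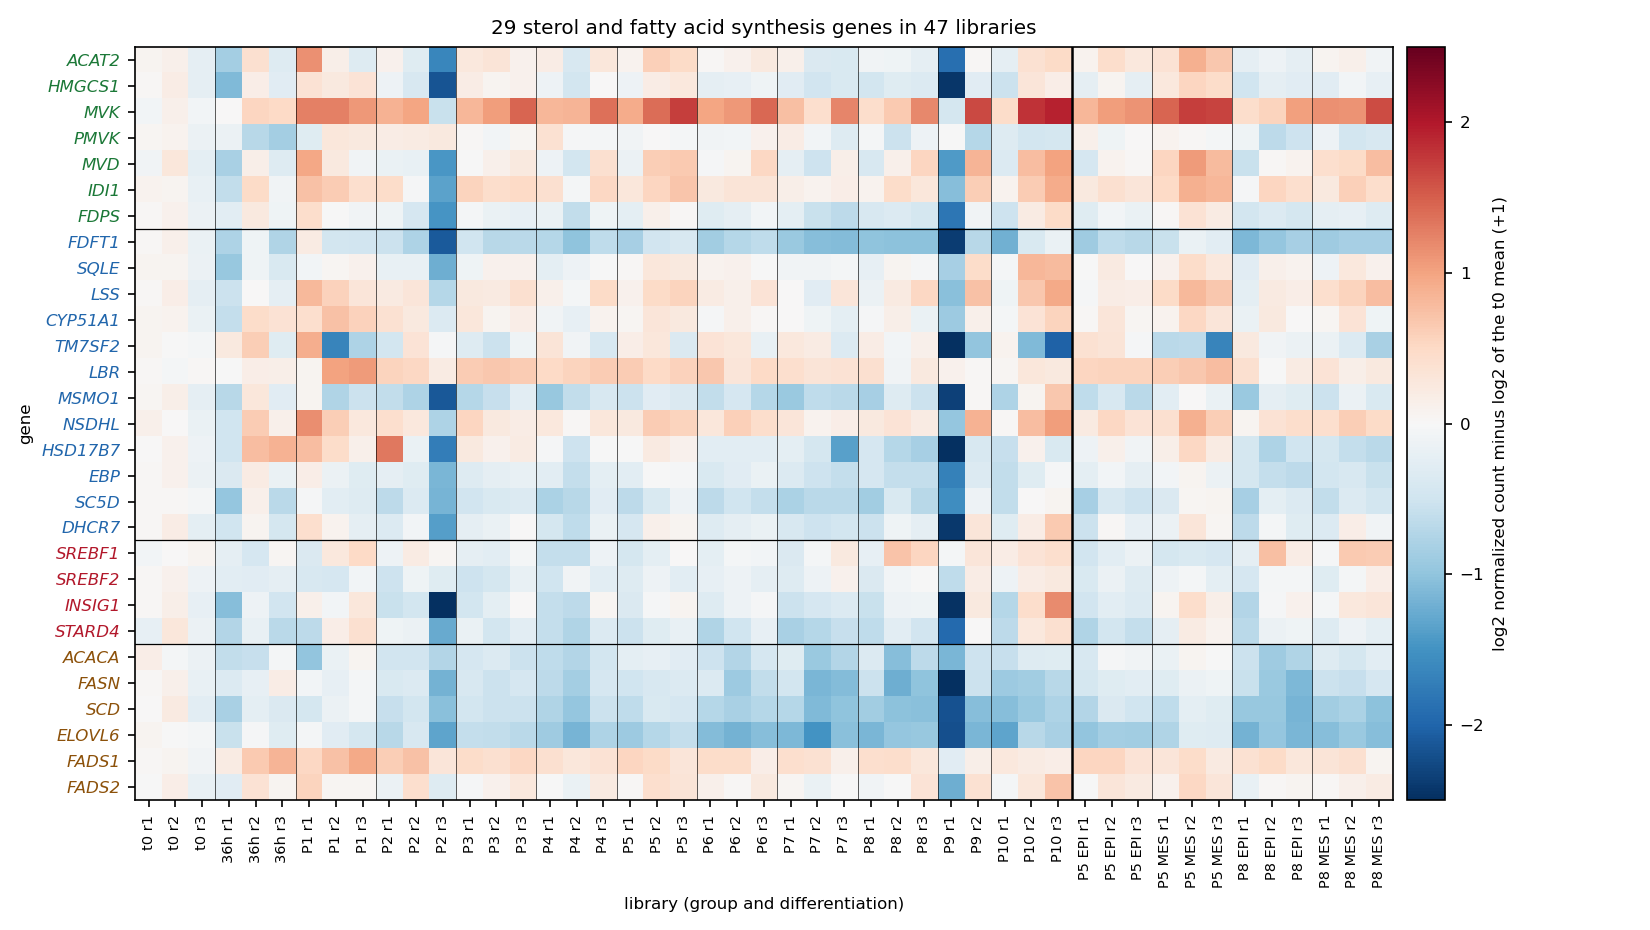
Log2 ratio of each library to the mean of t0 for the 29 genes (rows, by role) in 47 libraries (columns, by time point and fraction). Colours end at -2.5 and 2.5, and the columns of P2 r3 and P9 r1 are low in most rows.

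Over the whole time course, 8 of the 29 genes changed with time in a test of any difference among the 12 time points (edgeR quasi-likelihood F-test with the differentiation as a block, Benjamini-Hochberg adjusted p under 0.05), against 69.1% of all genes tested. The 8 were *ELOVL6* (adjusted p = 4.7e-05), *SCD* (1.6e-04), *SREBF1* (0.0012), *FADS1* (0.0014), *LBR* (0.0027), *PMVK* (0.019), *SQLE* (0.032) and *MVK*, whose adjusted p lay just under 0.05. *FASN* (0.053), *FDFT1* (0.055) and *SREBF2* (0.071) were the nearest of the 21 that did not pass, and *FADS2* had the largest adjusted p, 0.82. Without P2 r3 and P9 r1, a choice made after seeing the data that leaves P9 with 1 library, 16 passed, against 64.8% of all genes, among them all 8 of those above and *FASN* at 3.7e-04. The median ratio of the highest to the lowest whole culture was 4.84 over the 29 genes and 2.64 without these libraries.

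**Figure D3:**
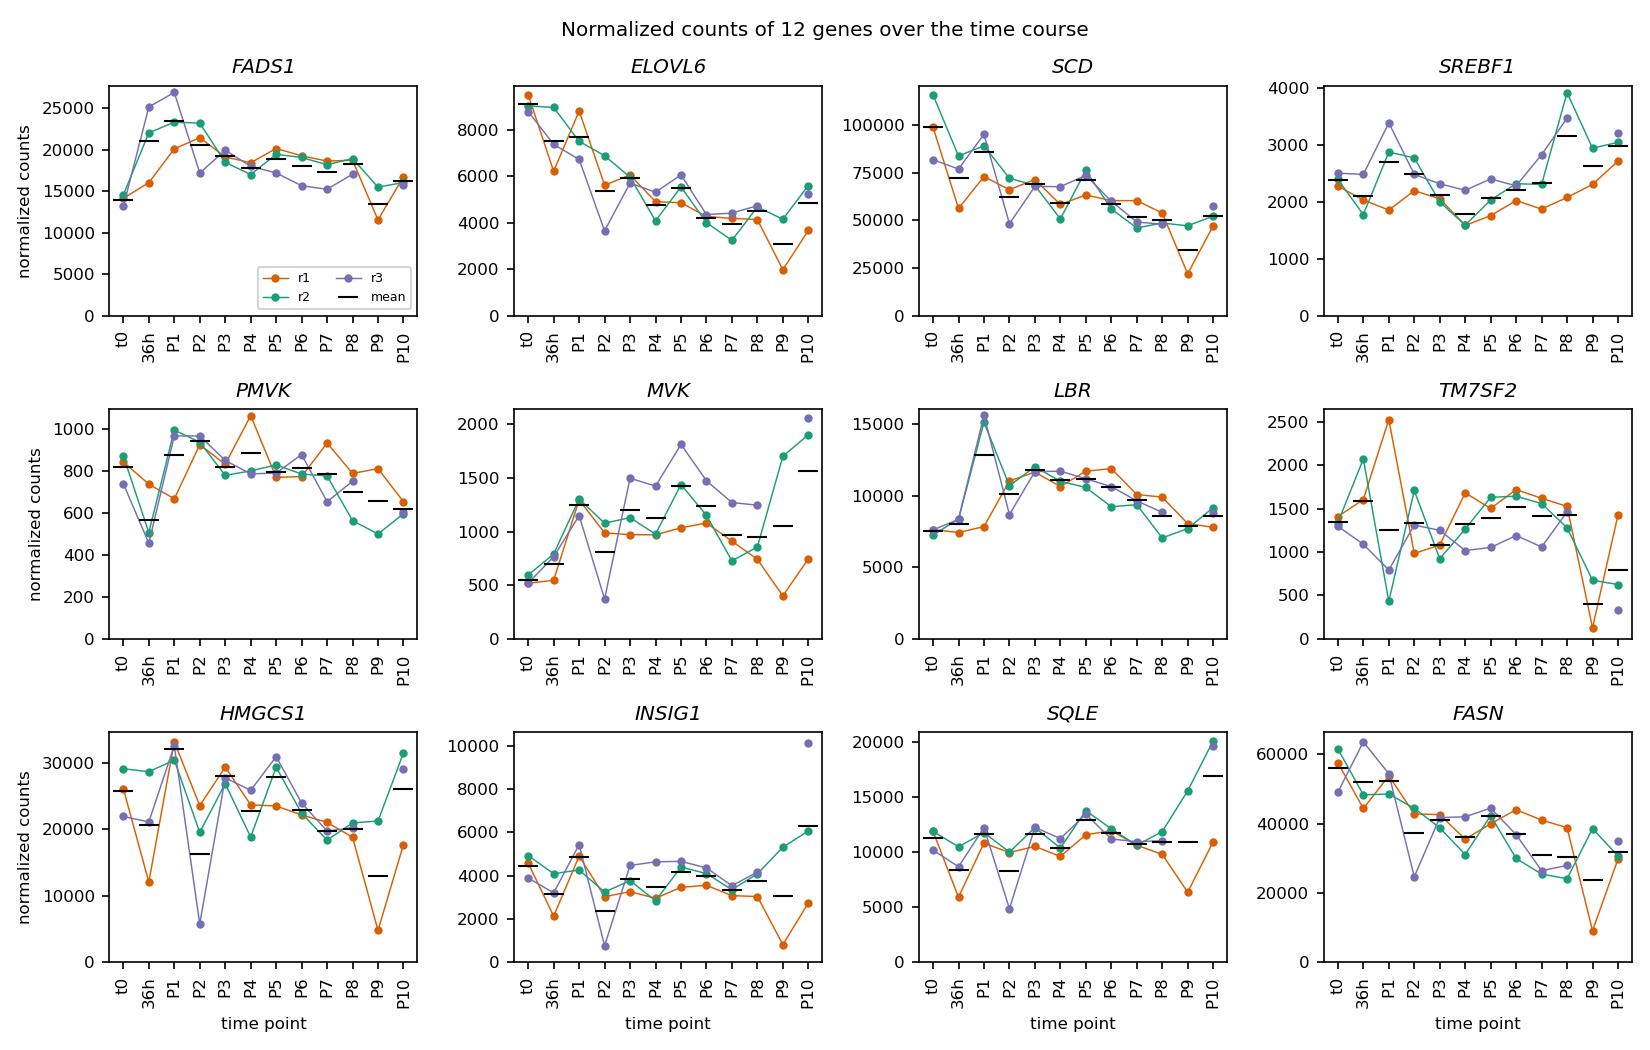
Normalized counts of 12 of the 29 genes in each whole culture from t0 to P10. Time points are equally spaced and points are libraries. Lines join the libraries of the same differentiation, and unconnected dashes mark the group means. *ELOVL6* and *SCD* are lower at P8 than at t0, *FADS1* is higher at 36 h and P1, and single low points mark P2 r3 and P9 r1.

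Of the 6 fatty acid genes, *ELOVL6*, *SCD* and *FADS1* passed the test over the time course, with *ELOVL6* and *SCD* lower and *FADS1* higher than at t0. *ELOVL6*, which lengthens palmitate, had 9516, 9037 and 8792 at t0, 4862, 5545 and 6065 at P5, and 4140, 4680 and 4736 at P8. All P8 values lay below all P5 values and these below all t0 values, and *ELOVL6* was lower than at t0 in 9 of 11 comparisons, P2 to P10, by 1.02 (SE 0.21, adjusted p = 4.2e-04) on the log2 scale at P8. *SCD*, which puts the first double bond into stearate and palmitate, had 99011, 115955 and 81886 at t0, 53908, 48637 and 48010 at P8, and 47136, 52220 and 57658 at P10. Neither later group overlapped t0, and *SCD* fell by 0.97 at P8 (SE 0.20, adjusted p = 3.1e-04) and by 0.92 at P10 (adjusted p = 4.6e-04), and was lower than at t0 in 8 of 11 comparisons.

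*FASN*, the synthase that makes palmitate, had 57611, 61586 and 49091 at t0 and 38856, 24072 and 27922 at P8, a fall of 0.89 (SE 0.32, adjusted p = 0.024) with no overlap. *ACACA*, the carboxylase that makes malonyl-CoA, had 16857, 14647 and 13696 at t0 and 11825, 7244 and 9560 at P8, a fall of 0.66 (SE 0.22, adjusted p = 0.014), again with no overlap. Without P2 r3 and P9 r1, the number of comparisons in which a gene was lower than t0 went from 8 to 10 for *SCD*, from 4 to 6 for *FASN* and from 6 to 4 for *ACACA*, and stayed at 9 for *ELOVL6*. *FADS1*, the delta-5 desaturase, went the other way. It had 14141, 14552 and 13154 at t0, 16012, 22017 and 25140 at 36 h, and 20097, 23305 and 26899 at P1. All 36 h and P1 libraries were above all t0 libraries, and *FADS1* was higher than at t0 in 8 of 11 comparisons, with a log2 fold change of 0.75 (SE 0.14, adjusted p = 2.7e-04) at P1 and 0.39 (adjusted p = 0.024) at P8. Its neighbour *FADS2* had 26900, 30093 and 23836 at t0 and 25256, 26711 and 33968 at P8, overlapping ranges, and passed in no comparison with t0. *FADS1* and *FADS2* lie on opposite strands of chromosome 11 (GRCh38), with 490 exon bases in common, so reads there cannot be assigned with certainty without strand.

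In the mevalonate steps, *MVK* (mevalonate kinase) had the largest rise. It had 518, 595 and 520 at t0, 1296, 1303 and 1149 at P1, 1035, 1439 and 1813 at P5, and 745, 1903 and 2057 at P10. None of the libraries of these later groups reached down to t0, and *MVK* was higher than t0 in 6 of 11 comparisons, by 1.35 (SE 0.38, 2.56-fold, adjusted p = 0.0048) at P5 and 1.45 (adjusted p = 0.0024) at P10. The gene shares 306 exon bases with *MMAB* on the opposite strand. *PMVK*, the next kinase, had 844, 873 and 740 at t0, 738, 507 and 456 at 36 h, and 668, 996 and 968 at P1. Its 36 h values all lay below t0, but the difference of -0.54 (SE 0.18) did not pass (adjusted p = 0.051), while the rise from 36 h to P1 did. *ACAT2*, *MVD*, *IDI1* and *FDPS* passed in no comparison with t0, and *HMGCS1* passed at P9 alone (-1.09, adjusted p = 0.045), where P9 r1 (4749) was far below P9 r2 (21203). Without P2 r3 and P9 r1 that call was lost (-0.33, adjusted p = 0.41), *IDI1* was higher than t0 at P1 (0.61, adjusted p = 0.032) and P10, and *MVK* was higher in 10 of 11 comparisons.

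Among the squalene and sterol steps, *FDFT1* (squalene synthase) had 22101, 23579 and 19230 at t0 and 10744, 10700 and 10697 at P8, a fall of 1.01 (SE 0.33, adjusted p = 0.015) with no overlap. *SC5D*, a late sterol desaturase, had 5954, 5904 and 5585 at t0 and 3190, 4436 and 3592 at P8, a fall of 0.66 (SE 0.24, adjusted p = 0.025). Both genes had P8 libraries below every t0 library, and *SC5D* was lower than t0 in 6 of 11 comparisons and *FDFT1* in 4. These numbers were 4 and 8 without P2 r3 and P9 r1. *SQLE* (squalene epoxidase) had 11870, 11857 and 10159 at t0 and 10917, 20086 and 19645 at P10. It was called higher at P10 (0.55, SE 0.23, adjusted p = 0.049), although P10 r1 lay within the t0 range.

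Apart from *LBR*, given below with *TM7SF2*, the remaining sterol enzymes passed seldom or never against t0. *CYP51A1*, the lanosterol demethylase, had 8410, 8460 and 7150 at t0 and 10769, 13368 and 11865 at P1, a rise of 0.58 (SE 0.22, adjusted p = 0.043) with no overlap and its only call. *MSMO1*, a sterol C4 methyl oxidase, had 5123, 4619 and 1813 at P2 against 8088, 8731 and 6765 at t0, a fall of 1.01 (SE 0.39, adjusted p = 0.041). All P2 values of *MSMO1* were below t0, and P2 r3 was the lowest by far. Without it and P9 r1 the estimate was -0.65 and did not pass (adjusted p = 0.090), but *MSMO1* was then lower at P4 (-0.65, adjusted p = 0.042) and P7 (-0.75, 0.019). *EBP*, the sterol isomerase, had 750 and 1913 at P9 against 2471, 2605 and 2174 at t0, a fall of 0.91 (SE 0.27, adjusted p = 0.0079), with P9 r1 again the lower library, and without P2 r3 and P9 r1 the estimate was -0.35 (adjusted p = 0.22). *NSDHL*, a C4 decarboxylating dehydrogenase, had 1764, 1628 and 1436 at t0 and 1904, 2038 and 1865 at P8, and passed in no comparison with t0, as did *HSD17B7*, *DHCR7*, *LSS* and the carrier *STARD4*. Without P2 r3 and P9 r1, *LSS* was higher in 3 comparisons and *NSDHL* in 2, and *STARD4* and *EBP* were each lower in 2.

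In all, 6 of the 29 genes were higher than t0 in at least 1 of the 11 comparisons, 12 were lower in at least 1, *SREBF1* did both, and 12 passed in none. Leaving out P2 r3 and P9 r1 gave 9 higher, 13 lower, 2 of them both (*SQLE* and *SREBF1*), and 9 in none. All of these comparisons share the 3 t0 libraries, so they are not independent. Of the 29 genes, 1 passed at 36 h against 12.3% of all genes tested, 4 at P1 against 33.5%, 8 at P2 against 43.0% and 6 at P3 against 45.4%. The counts were 8 at P4 against 46.5%, 4 at P5 against 47.3%, 7 at P6 against 47.7% and 6 at P7 against 49.4%. They were 8 at P8 against 50.3%, 9 at P9 against 52.7% and 5 at P10 against 54.3%. At each of these 11 time points the share of members that passed was below that of all genes. The P9 count rests on P9 r1: without P2 r3 and P9 r1 the calls at P9 were 2 higher and 3 lower, against 40.2% of all genes in that fit, with 2 calls (*SCD* and *ELOVL6*) shared with the 9, and the median change turned from -0.66 to 0.01. At P2 they were 3 higher and 3 lower, against 36.0%, with 5 shared with the 8. At 36 h there were 4 calls, against 12.5% of all genes. In that fit there were 8 calls in place of 4 at P1 (33.2% of all genes), 8 in place of 6 at P3 (44.9%), 13 in place of 8 at P4 (45.9%) and 6 in place of 4 at P5 (46.7%). From P6 on there were 9 in place of 7 at P6 (46.9%), 11 in place of 6 at P7 (48.6%), 10 in place of 8 at P8 (49.6%) and 9 in place of 5 at P10 (53.8%). The share of members was above that of all genes at 36 h alone, and all calls of the full set at these 8 time points and at 36 h were kept. At P8, 2 were higher and 6 lower, against 24.4% and 25.8% of all genes. The higher genes were *FADS1* and *SREBF1*. *SREBF1* had 2272, 2389 and 2499 at t0, 1583, 1588 and 2198 at P4 and 2072, 3912 and 3465 at P8. It was lower than t0 at P4 (-0.43, adjusted p = 0.021) with no overlap, and higher at P8 (0.37, SE 0.15, adjusted p = 0.041) with P8 r1 below t0. *SREBF2*, which encodes SREBP-2, had 17290, 18249 and 15509 at t0 and 11876, 12572 and 14899 at P3, a fall of 0.38 (SE 0.13, adjusted p = 0.019), its only call against t0 with all libraries and 1 of 3 (P1, P3 and P4) without P2 r3 and P9 r1. *INSIG1* passed in none, with 4578, 4925 and 3888 at t0 and 3032, 4083 and 4168 at P8.

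From t0 to 36 h, 1 of 29 was higher, *FADS1* (0.60, SE 0.14, 1.51-fold, adjusted p = 0.0061), and 0 were lower, against 6.08% and 6.23% of all genes. The median log2 change was -0.21 over the 29 genes and -0.01 over all genes, with 21 of 29 negative (median -0.04 without r1), 3 members at an unadjusted p under 0.05 and 1 lower by DESeq2, which called 16.7% of all genes. The differentiations were uneven here: *HMGCS1* had 26068, 29076 and 21891 at t0 and 12020, 28619 and 21072 at 36 h, and in 36 h r1 27 members lay below the other 36 h libraries with a median difference of -0.51. Among the 45 libraries other than P2 r3 and P9 r1, it also had the highest *CHAC1*, *TRIB3*, *ASNS*, *PSAT1*, *PHGDH* and *CTH* of the stress list. The highest *INHBE*, *DDIT3*, *ATF4*, *SESN2* and *CEBPB* were in 36 h r3, where the median difference of the 29 genes was 0.03. The part of the stress genes in the result was not tested. Without P2 r3 and P9 r1, *PMVK* (-0.54, adjusted p = 0.045), *SQLE* (-0.46, 0.043) and *SCD* (-0.46, 0.044) were also lower.

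With all libraries, the largest estimates that did not pass were -0.56 (SE 0.45) for *INSIG1*, -0.54 for *PMVK*, given above, 0.53 (SE 0.50) for *HSD17B7*, and -0.52 for *FDFT1* (SE 0.33) and *STARD4* (SE 0.32). *HSD17B7*, which reduces sterol ketones, had 1354, 1451 and 1243 at t0 and 951, 2310 and 2473 at 36 h. *INSIG1* had 4578, 4925 and 3888 at t0 and 2123, 4088 and 3201 at 36 h. *STARD4* had 4715, 6631 and 4925 at t0 and 3254, 4739 and 3409 at 36 h. For *HSD17B7*, *INSIG1* and *STARD4*, 36 h r1 was the lowest 36 h library, and the groups overlapped.

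From 36 h to P1, 2 of 29 were higher, against 3.73% of all genes: *PMVK* (0.66, SE 0.18, adjusted p = 0.027) and *LBR* (0.67, SE 0.17, adjusted p = 0.014). The log2 change was positive for 25 of 29, with a median of 0.34 over the set and -0.03 over all genes. The median was 0.10 without r1 and 0.55 without r2. The largest estimates that did not pass were those of *MVK* (0.87, adjusted p = 0.15), *LSS* (0.84, 0.092) and *MVD* (0.81, 0.25). *LSS*, lanosterol synthase, had 4674, 6811 and 5776 at 36 h and 11842, 10088 and 8256 at P1, which do not overlap. *MVD* had 1324, 2573 and 1865 at 36 h and 4557, 2760 and 2191 at P1, which overlap, with P1 r1 the highest. P1 r1 was also the highest P1 library for *ACAT2*, with 23493 against 11821 and 8478, and the lowest for *LBR*. Its cells stood apart too: hESC markers summed to 46862 in r1 and to 4850 and 4708 in r2 and r3. Epithelial markers summed to 78763 (55951 of it *NKX1-2*), 8220 and 2921, and paraxial mesoderm markers to 249, 11532 and 14557. The part of this difference in the P1 results was not tested. Without P2 r3 and P9 r1, *MVK*, *SQLE* and *LSS* passed too, making 5, against 8.52% of all genes called in either direction in that fit.

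The largest median changes between neighbouring passages were those into P2 and out of P9. From P1 to P2 the median was -0.49, with 0 of 29 called by edgeR (0.952% of all genes) and by DESeq2 (4.62%). By edgeR 12 members had an unadjusted p under 0.05. Without r1, 1 member was higher and 8 were lower (median -0.63), against 13.9% of all genes. Without P1 r1, P4 r3, P6 r3 and P10 r1, 1 was lower, against 1.45%. From P9 to P10 the median was 0.63, again with 0 called by edgeR (0.0508% of all genes) and by DESeq2 (1.02%). By edgeR 11 members had an unadjusted p under 0.05. These medians were -0.25 and 0.10 without P2 r3 and P9 r1.

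From P1 to P5 and from P5 to P8, 0 of 29 passed by edgeR, against 17.8% and 0.254% of all genes. In each comparison 3 members had an unadjusted p under 0.05, and DESeq2 called 1 lower in the first (23.1% of all genes called) and 1 higher in the second (3.07%). The changes were negative for 24 genes from P1 to P5 (median -0.20) and for 26 genes from P5 to P8 (median -0.25). The first of these medians rests on r1: it was 0.05 without r1, and 0.00 without P1 r1, P4 r3, P6 r3 and P10 r1. The largest from P1 to P5 was that of *ELOVL6* (-0.49, SE 0.21, adjusted p = 0.11), with 8818, 7510 and 6730 at P1 above all of its P5 values. The largest from P5 to P8 were *HSD17B7* at -0.76 (SE 0.51) and *SREBF1* at 0.60 (SE 0.15, adjusted p = 0.072). *HSD17B7* had 1338, 1566 and 1452 at P5 and 1003, 823 and 756 at P8, which did not overlap. *ACAT2*, the cytosolic acetyl-CoA acetyltransferase that feeds the pathway, had 11306, 16014 and 14767 at P5 and 10059, 9822 and 9128 at P8 (-0.54, SE 0.40), also without overlap. *SREBF1* had 1754, 2027 and 2399 at P5 and 2072, 3912 and 3465 at P8, with P8 r1 inside the P5 range.

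From P8 to P9, 1 of 29 was lower, against 4.12% of all genes. This was *TM7SF2*, with 1527, 1280 and 1463 at P8 and 128 and 676 at P9 (-1.94, SE 0.60, adjusted p = 0.041). Epithelial markers summed to 34361, 13682 and 8671 at P8 and to 912 and 919 at P9. Neural crest markers summed to 7599, 22805 and 46616 at P8 and to 56370 and 62975 at P9. Their part in the fall was not tested. Both P9 values of *TM7SF2* lay below P8, but without P2 r3 and P9 r1 the estimate was -1.09, with 1 library at P9. The median change of the 29 genes also turned, from -0.33 to 0.29, once these libraries were left out. From P8 to P10, 0 of 29 passed by edgeR (2.18% of all genes) and by DESeq2 (6.01%), with 1 member at an unadjusted p under 0.05 by edgeR. The estimates were positive for 24 genes (median 0.33, and 0.54 without r1), led by *INSIG1* (0.70, SE 0.45), which had 3032, 4083 and 4168 at P8 and 2731, 6068 and 10157 at P10. *MSMO1* had 4417, 6329 and 5421 at P8 and 4625, 8188 and 12524 at P10 (0.64, SE 0.39). For both genes P10 r2 and r3 were above all P8 libraries and r1 was not. P10 r1 stood below the other cultures for 26 members and also differed in its cells: epithelial markers summed to 21648 in r1 and to 364 and 276 in r2 and r3, and neural crest markers to 12998, 53651 and 66484. Whether this difference in cells bore on the lipid genes at P10 was not tested.

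Many sterol genes were higher in the MES than in the EPI fraction of the same P5 cultures. At P5, 12 of 29 genes were higher in MES and 1 was lower, against 4.22% and 3.45% of all genes tested. The median log2 ratio of MES to EPI was 0.31 over the 29 genes and -0.01 over all genes. In all 3 cultures 25 of 29 genes were higher in MES, against 32.9% of 12718 genes whose mean normalized count reached 100. For 14 of 29 every MES library exceeded every EPI library, against 18.8% of the same genes. The calls, though not the median ratio, depend on pairing the fractions of 1 culture. Without the block 0 members and 0 of all genes passed, with a median of 0.30. In a fit of all 47 libraries 0 members and 1.19% of all genes passed, with a median of 0.31. Leaving out r2 or r3 keeps the pairing but loses a culture. It gave 0 members and 0 of all genes, with medians of 0.28 and 0.34.

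Of the 7 mevalonate genes 5 passed, and *ACAT2* and *PMVK* did not. *MVD*, which forms isopentenyl pyrophosphate, had 1745, 2491 and 2378 in EPI and 3384, 4870 and 4016 in MES, a log2 ratio of 0.90 (SE 0.12, 1.86-fold, adjusted p = 0.014). *HMGCS1* had 21978, 27036 and 22097 in EPI and 30833, 37426 and 35066 in MES, a log2 ratio of 0.54 (adjusted p = 0.014). *MVK* had 968, 1117 and 1191 in EPI and 1493, 1810 and 1767 in MES, a log2 ratio of 0.63 (adjusted p = 0.020). The ranges of these 3 genes did not overlap between fractions. *FDPS* had 7790, 9169 and 8547 in EPI and 9752, 12281 and 11072 in MES (0.37, adjusted p = 0.024). *IDI1*, the isomerase of isopentenyl pyrophosphate, had 6049, 6683 and 6297 in EPI and 7172, 9444 and 9023 in MES (0.42, adjusted p = 0.027). MES was above EPI in every library for these as well.

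Of the 12 genes of the squalene and sterol steps 4 were higher and 1 was lower. *LSS* had 6564, 7691 and 7559 in EPI and 9434, 11883 and 10789 in MES, a log2 ratio of 0.56 (adjusted p = 0.015). *FDFT1* had 11735, 13890 and 13420 in EPI and 14807, 19376 and 18057 in MES (0.42, adjusted p = 0.023). *SC5D* had 3276, 4379 and 4075 in EPI and 4547, 5990 and 6061 in MES (0.50, adjusted p = 0.016). None of these 3 overlapped. *DHCR7*, which converts 7-dehydrocholesterol to cholesterol, had 4010, 5960 and 5093 in EPI and 5310, 7233 and 6022 in MES (0.31, adjusted p = 0.023), where the ranges overlapped and the call came from the differences within each culture.

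The sensor and the carrier moved with the enzymes. *INSIG1* had 3224, 3700 and 3526 in EPI and 4709, 6050 and 4974 in MES (0.59, adjusted p = 0.037). *STARD4*, a cytosolic cholesterol carrier, had 3224, 3921 and 3603 in EPI and 4663, 6269 and 5790 in MES (0.63, adjusted p = 0.015). Both had every MES value above every EPI value. Of the 6 fatty acid genes 1 passed, *ELOVL6*, with 4586, 5038 and 4976 in EPI and 5392, 7377 and 7247 in MES (0.45, adjusted p = 0.024). *SREBF1* had 1705, 1996 and 2142 in EPI and 1761, 1840 and 1784 in MES, and *SREBF2* had 12991, 15433 and 13597 in EPI and 15515, 16524 and 14377 in MES, and neither passed.

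**Figure D4:**
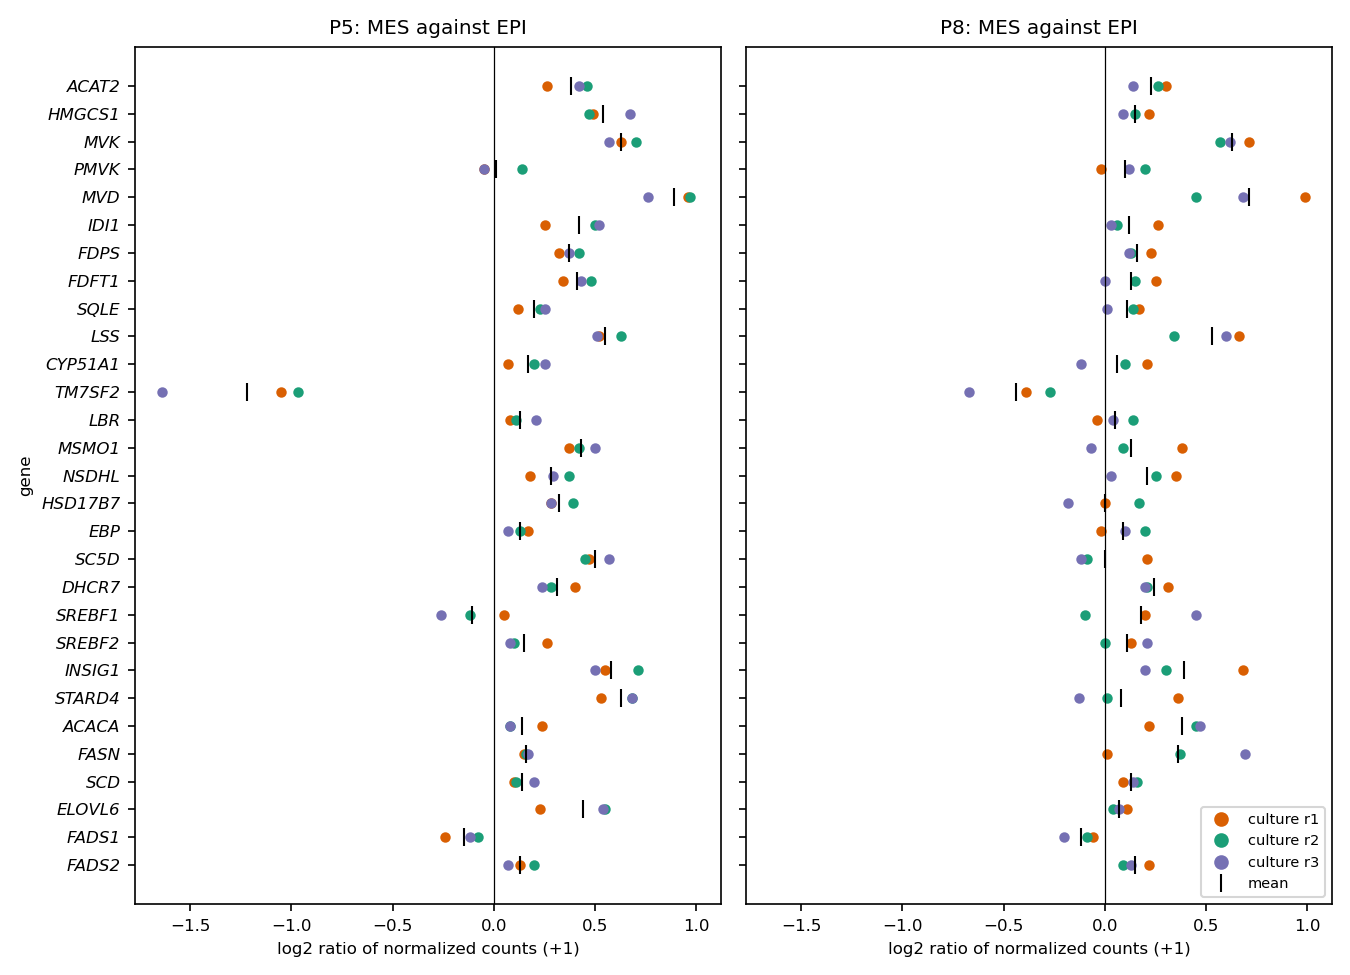
Log2 ratio of MES to EPI in the same culture for each of the 29 genes, at P5 and at P8, with 1 point per differentiation. Most points lie above 0 at P5, *TM7SF2* lies below 0 in every culture, and the P8 ratios are smaller for many genes.

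The fractions separated as labelled at P5. Epithelial markers summed to between 24173 and 35978 in EPI and between 4519 and 12551 in MES. Neural crest markers summed to between 4306 and 17166 in EPI and between 24558 and 41491 in MES. Neuronal markers had 11740, 8285 and 7627 in EPI and 6526, 5692 and 3230 in MES. The hESC markers had 944, 639 and 1295 in EPI and 2039, 1376 and 2527 in MES. The part of these lists in the lipid ratios was not tested. At P8 the epithelial and neural crest sums overlapped between cultures but differed one way within each. Epithelial markers summed to 33025, 14949 and 9992 in EPI of r1, r2 and r3 and to 22599, 9471 and 2698 in MES, and neural crest markers to 6103, 22516 and 46904 in EPI and 18534, 26057 and 64784 in MES. At P8, 0 of 29 genes passed by edgeR, as did 0 of all genes tested, while 12 members had an unadjusted p under 0.05 and DESeq2 called 4 higher, with 2.02% of all genes called. The median log2 ratio was 0.12, and 17 of 29 genes were higher in MES in all 3 cultures, against 22.0% of 13064 genes whose mean normalized count reached 100. *MVD* had 1578, 2398 and 2480 in EPI and 3135, 3275 and 3977 in MES at P8, which did not overlap, with a log2 ratio of 0.71 (adjusted p = 0.24). The difference between the P5 and P8 ratios was tested as an interaction, with 7 members at an unadjusted p under 0.05. By edgeR 0 of 29 and 0 of all genes passed, and by DESeq2 0 members and 0.0265% of all genes.

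Comparisons of 1 fraction between passages were added after seeing the data. In MES, 11 members were lower at P8 than at P5 and 1 was higher, against 3.54% and 6.91% of all genes. *HMGCS1* had 30833, 37426 and 35066 in MES at P5 and 21030, 24393 and 22397 at P8, a fall of 0.61 (adjusted p = 0.0051) with no overlap. The gene that rose was *SREBF1*, with 1761, 1840 and 1784 at P5 and 2349, 3739 and 3706 at P8 (0.83, adjusted p = 0.023), also with no overlap. In EPI, 7 members were lower at P8, against 3.11% of all genes. They were *ACAT2*, *PMVK*, *LBR*, *HSD17B7*, *EBP*, *ACACA* and *SCD*, with log2 changes from -0.36 to -0.55. *SCD* had 59689, 77118 and 70267 in EPI at P5 and 51255, 51492 and 44478 at P8. *ACACA* had 11401, 14849 and 14206 in EPI at P5 and 10343, 8125 and 9003 at P8. Neither gene overlapped between the passages. The proliferation genes also summed to less at P8 in both fractions, without overlap. In MES they had 159790, 150349 and 154375 at P5 and 144777, 123461 and 117063 at P8. In EPI they had 160123, 161061 and 162163 at P5 and 151669, 112311 and 107002 at P8. Their part in these changes was not tested.

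*LBR* and *TM7SF2* encode the pair of enzymes with sterol C14 reductase activity, and their courses differed. *LBR* is also an inner nuclear membrane protein that binds lamin. It had 7634, 7257 and 7607 normalized counts at t0, 7424, 8362 and 8347 at 36 h, and 7840, 15136 and 15613 at P1. P1 r2 and r3 were above every other whole culture, and P1 r1 lay within the 36 h range. *LBR* was higher than t0 at P1 to P6, with a log2 fold change of 0.78 (SE 0.17, adjusted p = 0.001) at P1 and 0.57 (adjusted p = 0.0066) at P5, where it had 11709, 10575 and 11185.

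*TM7SF2* had 1409, 1339 and 1297 at t0 and 2527, 431 and 793 at P1. At P10 it had 1427, 625 and 330. In P9 r1 it was 5.27-fold lower than in P9 r2, whereas P2 r3 (1312) lay between P2 r1 (984) and P2 r2 (1710). Its highest whole-culture value was thus in P1 r1, the culture in which *LBR* was lowest at P1 and the epithelial marker sum was highest. *NKX1-2* made up 55951 of that sum, while *CDH1* (152) and *EPCAM* (1159) were far below their t0 means of 13695 and 8597. At P10, r1, the culture with the highest epithelial sum, again had the highest *TM7SF2* value. In the P5 fractions it had 1747, 1688 and 1325 in EPI and 842, 860 and 426 in MES, a log2 ratio of -1.20 (SE 0.16, 2.30-fold lower, adjusted p = 0.014), and it was the only member lower in MES past the threshold. At P8 it had 1599, 1274 and 1225 in EPI and 1216, 1058 and 769 in MES, with a log2 ratio of -0.45 that did not pass. *LBR* had 10898, 11101 and 11017 in EPI and 11506, 11979 and 12739 in MES at P5, which did not overlap but did not pass.

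In TPM, *LBR* exceeded *TM7SF2* by 2.23-fold, 2.29-fold and 2.37-fold in the 3 t0 libraries. That ratio was 1.38, 13.1 and 7.45 in P1 r1, r2 and r3. In the P5 fractions it was 2.44, 2.77 and 3.48 in EPI and 5.21, 5.33 and 12.0 in MES, which did not overlap. It was largest, at 22.4, in P9 r1, where *TM7SF2* stood at 4.86 TPM and *LBR* at 109 TPM.

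**Figure D5:**
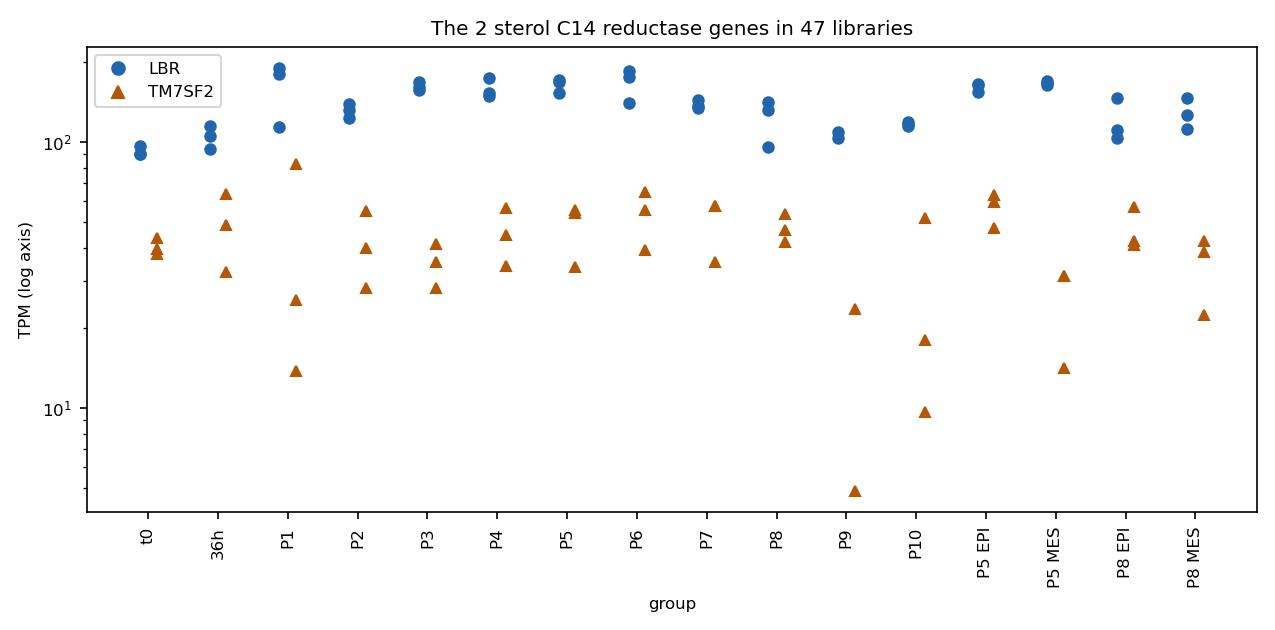
TPM of *LBR* and *TM7SF2* on a log axis in each library by time point and fraction. *LBR* stays between 90.0 and 189 TPM, while *TM7SF2* runs from 4.86 to 82.7 TPM and is lower in MES than in EPI.

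Other genes of the pathway were described from further lists. Of 10 genes of SREBP processing and the LXR response, 9 changed over the time course, as did 9 of 10 genes of sterol uptake and storage and 11 of 12 of fatty acid supply, against 69.1% of all genes. From t0 to 36 h, 4 of the 10 genes of the first list were lower, against 6.23% of all genes, the largest being *ABCA1*, a cholesterol exporter (-2.35, adjusted p = 0.030), and *MYLIP*, a ubiquitin ligase induced by LXR (-2.09, 0.0012). *SOAT1*, which esterifies cholesterol, was higher (2.23, adjusted p = 2.4e-04). From 36 h to P1, *ABCG1*, another sterol exporter, rose by 5.99 (adjusted p = 0.013), and from P1 to P5 it fell by 7.88 (adjusted p = 0.0017). It had 52.8, 10.4 and 145 at 36 h, 18.5, 5743 and 5325 at P1, and 23.7, 3.26 and 31.5 at P5, so P1 r1 did not share the rise. *MYLIP* rose by 3.58 (adjusted p = 8.9e-06) from P1 to P5. In the P5 fractions *MYLIP* (0.84) and *ACSS2*, which makes acetyl-CoA from acetate (0.88), were higher in MES, and *FADS3* was lower (-0.84).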

How the data were processed

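The authors sequenced polyA RNA (KAPA mRNA libraries, Illumina HiSeq, single-end reads), and the submitters' processing notes name cutadapt 1.16, STAR 2.5.2b, RSEM 1.3.0 and GRCh38. The annotation release and the strand setting are not given in the sources used here. The deposited tables hold RSEM expected counts and TPM per Ensembl gene and library. The deposited expected counts are estimates, of which 9.33% are not whole, and they were rounded. Symbols and coordinates came from GENCODE 29, which held 57447 of the 58051 identifiers. Overlapping or antisense genes and processed pseudogenes (8 are numbered for *FDPS* and 3 for *CYP51A1*) can share reads with members.

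Counts were scaled by TMM over 47 libraries and tested in R 4.3.3 with edgeR 4.0.16 (quasi-likelihood F-test, filterByExpr, Benjamini-Hochberg adjustment over all genes, threshold 0.05), with 21649 genes over the 35 whole cultures and 18924 over the 12 fraction libraries. The differentiation number entered as a block, since per the labels each experiment ran through the time points and fractions, with P9 in 2 of the 3. Deviations of same-numbered EPI and MES libraries correlated at 0.65 at P5 and 0.78 at P8. Among whole cultures the correlations were lower, from -0.02 (P1 and P5) and -0.01 (t0 and 36 h) to 0.21 (36 h and P1), 0.24 (P8 and P10) and 0.31 (P5 and P8). There the pairing comes from the labels, with some backing in the data for P5 and P8. For these the lowest same-numbered correlation was 0.10, and libraries of other numbers gave -0.15. There were 3 libraries per group (2 at P9), all from 1 line. The block removes average differences between differentiations, so p-values measure how the changes varied among them. That spread was estimated over all groups of a fit. The script was tested on simulated data.

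The members and lists were chosen with earlier results of these data known. All members are named by role, with values in every library of the groups compared for most called members, the largest changes and *INSIG1*, *SREBF1* and *SREBF2*. Genes of other lists are named for the 2 largest called changes in a list. Alternatives were DESeq2 1.42.0, its size factors in edgeR, other filters and blocks, other sets of libraries, and the study's thresholds (1% false discovery rate, 2-fold, mean of 100). Sequences of 4 members were not used. Some genes of the wider pathway are not reported here.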

Additional observations from a re-analysis of the deposited data

How the results depend on the processing

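The counts of members called were small and moved with the settings. Against t0, P8 gave 2 higher and 6 lower, but 0 and 3 without r2 (29.6% of all genes) and 0 and 2 without r3 (35.4%). P4 gave 3 higher and 5 lower, but 0 and 1 without r2 (25.3%) and 0 and 2 without r3 (31.3%). P2 gave 2 higher and 6 lower, but 2 and 11 without r1 (45.4%), 0 and 3 without r2 (21%) and 1 and 0 without r3 (26%). For any change over the time course (8 of 29), DESeq2 gave 13 (76.3% of all genes), a fit of all 47 libraries 15 (74.4%), the fit without P2 r3 and P9 r1 16 (64.8%) and the study's thresholds 2, and leaving out 1 replicate number at a time gave 3 to 17 (42.6% without r3, 32.8% without r2 and 70.5% without r1). From t0 to 36 h (12.3% of all genes), the 1 higher call became 0 in the compared groups alone (11.3%) and at the study's thresholds. It ran from 0 to 1 without single replicates (17.1% of all genes without r1, 1.72% without r2 and 1.92% without r3). The 0 lower calls became 1 with DESeq2 (16.7%), its size factors (12.3%), at least 10 counts in every library (14.4%) and the fit of all 47 (15.4%). They also became 1 in the compared groups alone and without P1 r1, P4 r3, P6 r3 and P10 r1 (15.5%). There were 0 to 1 without single replicates and 3 without P2 r3 and P9 r1 (12.5%). From 36 h to P1 (8.29% of all genes), the 2 higher calls became 1 with no filter (3.13%). They became 0 in the compared groups alone (0%) and at the study's thresholds. They became 3 with DESeq2 (13.2%), in the fit of all 47 (11.9%) and without the 4 libraries above (16.3%), and 5 without P2 r3 and P9 r1 (8.52%). Without single replicates they were 0 to 3 (16.7% of all genes without r1, 0.0266% without r2 and 0.723% without r3), and the 0 lower calls 0 to 1. From P1 to P5 (17.8% of all genes), the 0 lower calls became 1 with DESeq2 (23.1%) and without P2 r3 and P9 r1 (17.9%). They became 2 without the 4 libraries above (19.6%). Without single replicates they were 0 to 3 (20.8% of all genes without r1, 3.52% without r2 and 4.71% without r3). From P5 to P8 (0.254% of all genes), 1 was higher with DESeq2 (3.07%) and without the 4 libraries (0.96%). Single replicates left out gave 0 to 1 higher and 0 to 2 lower, with 6.33% of all genes called without r1. From P8 to P9 (10.1% of all genes), the 1 lower call became 0 with no replicate block (2.79%) and with no filter (3.69%). It also became 0 in the compared groups alone (0%), without r3 (1.4%) and at the study's thresholds. It became 2 with DESeq2 (15.8%) and in the fit of all 47 (14.9%). Without r1, without r2 or without P2 r3 and P9 r1, P9 has 1 library, so calls are not counted. From P8 to P10, 1 was higher and 1 lower without the 4 libraries (16.2% of all genes, against 2.18% in the main fit). Without P2 r3 and P9 r1, 1 was higher (2.23%). Single replicates left out gave 0 to 2 higher and 0 to 1 lower, with 17.3% of all genes called without r1.

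For P5 MES against EPI, the 12 higher calls and the 1 lower call each became 0 at the study's thresholds and with no replicate block (0% of all genes). They also became 0 in the fit of all 47 (1.19%). The median log2 ratio of the 29 genes stayed at 0.30 with no block and 0.31 in the fit of all 47. Without single replicates the calls ran from 0 to 5 higher and 0 to 0 lower, with 1.06% of all genes without r1 and 0% without r2 or r3. Higher calls numbered 17 with the block within each passage (21.3% of all genes called in either direction) and 16 in the compared groups alone (21.6%). They numbered 15 with DESeq2 (15.6%) and 14 with at least 10 counts in every library (10.3%), against 7.67% in the main fit. For P8 MES against EPI, 4 were higher with DESeq2 (2.02% of all genes) and 1 with the replicate block within each passage (0.132%). No named call changed direction under any alternative run, but the median change of the 29 genes turned from P8 to P9 without P2 r3 and P9 r1 (-0.33 to 0.29) and without r1 (0.24), from P1 to P5 without r1 (-0.20 to 0.05), at P5 against t0 without r1 (-0.02 to 0.10), at P10 against t0 without r3 (0.11 to -0.19), at P1 against t0 without P1 r1, P4 r3, P6 r3 and P10 r1 (0.13 to -0.01), and at P9 against t0 without P2 r3 and P9 r1 (-0.66 to 0.01). Fits without 1 replicate number have 2 cultures per group, and the fit without P2 r3 and P9 r1 assumes that the lone P9 library varies like the other groups. The set without the 4 libraries, that without P2 r3 and P9 r1, and the block within each passage were chosen after seeing the data. Every member had at least 111 counts in every library.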
